A study of Mus musculus with 24 samples.

Results

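The genes described here are 6 sarcomeric myosin light chains (Myl1, Myl2, Myl3, Myl4, Myl7 and Mylpf), the broadly expressed light chain Myl6, and the muscle light chain kinases Mylk2 and Mylk3. They were taken from the gene table by symbol, and all 9 were found among 55401 genes. Total RNA was sequenced after removal of ribosomal RNA in 24 libraries, 1 each of kidney, skeletal muscle and left ventricle for 8 mice. The mice were C57BL6/J of 2 ages, 4 at 16.5 weeks and 4 at 86 weeks, and each age had 2 females and 2 males. No transgene, allele or treatment is given in the labels, which also do not say which muscle was sampled. Mice are named here by age and number: at 16.5 weeks 14 and 15 were female and 19 and 20 male, and at 86 weeks 11 and 12 were female and 14 and 17 male. The 2 mice numbered 14 are different animals.

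Each myosin heavy chain carries an essential and a regulatory light chain on its neck, the lever arm that turns as the motor works. Both chains exist as isoforms that differ by muscle type: Myl2 (regulatory) and Myl3 (essential) belong to the ventricle and to slow skeletal fibres, Myl7 and Myl4 to the atrium, and Mylpf and Myl1 to fast skeletal fibres. Phosphorylation of the regulatory chain raises the force that a muscle makes at a given calcium level, and it is carried out by a kinase of skeletal muscle, Mylk2, and by a kinase of heart, Mylk3. Myl6 is the essential chain of smooth muscle and non-muscle myosin and is found in nearly every tissue.

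Libraries held 52602585 to 103797551 counts. Levels are given as CPM, the count over the library total on a fixed scale, after TMM scaling, which sets the libraries on a common scale, and, where genes are compared with each other, as CPM per kb of the coding transcript. Defining markers went with the labels: the summed level of 6 cardiomyocyte genes was 43613 to 62156 CPM in left ventricle, that of 9 fast-fibre genes 138448 to 211041 CPM in skeletal muscle, and that of 6 kidney genes 4322 to 9837 CPM in kidney. Skeletal muscle had the slow-fibre troponin Tnni1 at 1.01 to 2.94 CPM, beside 0.63 to 1.43 CPM in left ventricle and kidney, and its 7 slow-fibre genes summed to 47.8 to 87.4 CPM, and to 189 CPM in 86-week mouse 17. In these bulk samples, fewer cells of a type and less RNA per cell cannot be told apart.

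The promoters of 3 members whose levels set the tissues or the libraries apart are shown first, as the 250 bases before the RefSeq start (GRCm38.p6), read 5′ to 3′ on the gene's strand. Myl7 lies at chr11:5898783-5899032 (minus strand), Myl4 at chr11:104550413-104550662 (plus strand) and Mylpf at chr7:127211358-127211607 (plus strand). Capitals mark matches, on either strand, to the E-box CANNTG, the MCAT element CATTCC, the GATA motif AGATAA, the CArG box or the MEF2 site. The TATA box TATAAA was also sought, but is not marked by capitals.
Myl7: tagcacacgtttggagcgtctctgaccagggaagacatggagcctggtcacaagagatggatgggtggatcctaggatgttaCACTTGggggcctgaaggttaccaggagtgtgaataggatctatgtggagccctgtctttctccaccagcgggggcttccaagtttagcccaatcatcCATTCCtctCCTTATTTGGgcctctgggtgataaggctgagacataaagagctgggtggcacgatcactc
Myl4: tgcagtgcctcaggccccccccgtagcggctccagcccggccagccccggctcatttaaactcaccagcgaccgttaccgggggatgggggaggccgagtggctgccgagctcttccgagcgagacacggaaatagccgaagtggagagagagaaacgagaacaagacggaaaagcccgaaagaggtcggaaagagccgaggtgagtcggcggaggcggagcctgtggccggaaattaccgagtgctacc
Mylpf: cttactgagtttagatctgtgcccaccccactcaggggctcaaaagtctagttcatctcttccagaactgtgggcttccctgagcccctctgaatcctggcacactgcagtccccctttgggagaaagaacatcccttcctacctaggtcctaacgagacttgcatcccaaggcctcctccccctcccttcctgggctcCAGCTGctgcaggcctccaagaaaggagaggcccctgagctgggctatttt
The Myl7 window held an E-box from base -168, an MCAT element from base -70 and a CArG box from base -61, counted back from the start. The Mylpf window held an E-box from base -51, and none of the 6 motifs was in the Myl4 window, which lies at the first of several annotated starts of that gene. Gene counts do not say which start was used. Of 32851 RefSeq windows of this length, 66.2% held an E-box, 12.6% an MCAT element and 1.47% a CArG box. These matches describe the letters only, and binding was not measured.

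The regulatory chains Myl2 (chr5:122100951-122113472, plus strand), Mylpf (chr7:127208890-127214298, plus) and Myl7 (chr11:5896637-5898782, minus; GENCODE M21 on GRCm38 here and for the genes that follow) divided the striated tissues almost completely. Myl2 had 1660, 3321 and 4210 CPM (lowest, median and highest) over the 8 left ventricle libraries, 0.33, 1.32 and 35.9 CPM in skeletal muscle and 0.43, 0.73 and 3.17 CPM in kidney. Every left ventricle library was far above every library of the other tissues, and the skeletal muscle maximum was a single library, 86-week mouse 17. Mylpf, the fast-fibre regulatory chain, had 2918, 4268 and 5408 CPM in skeletal muscle, 0.61, 0.98 and 2.44 CPM in left ventricle and 0.73, 0.85 and 1.24 CPM in kidney. Its ranges in left ventricle and kidney overlapped, and no library of either came near skeletal muscle.

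Myl7, the atrial regulatory chain, was the least abundant member in skeletal muscle, at 0.28, 0.34 and 0.55 CPM, with 0.24, 0.54 and 0.70 CPM in kidney. In left ventricle it ran from 0.41 to 33.5 CPM with a median of 5.86 CPM. That median falls in a gap, since 4 libraries lay at or under 0.64 CPM and 4 at or above 11.1 CPM.

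The essential chains are Myl3 (chr9:110741861-110769798, plus strand), Myl1 (chr1:66924295-66945404, minus) and Myl4 (chr11:104550663-104595753, plus). Exons of Myl2 share 60 bases with Ccdc63 and those of Myl3 95 bases with Pth1r, on the opposite strand in both, and whether counting used strand is not given in the sources used here. Myl3 had 1284, 1684 and 2052 CPM in left ventricle, 1.07, 1.48 and 13.8 CPM in skeletal muscle and 1.34, 2.01 and 3.0 CPM in kidney. Like Myl2, it was highest in skeletal muscle in 86-week mouse 17. Myl1, the fast-fibre essential chain, had 3585, 5644 and 7887 CPM in skeletal muscle, 9.67, 11.1 and 21.8 CPM in left ventricle and 0.22, 0.46 and 1.08 CPM in kidney. The 3 tissues did not overlap for Myl1, and left ventricle stood well above kidney, unlike for its fast-fibre partner Mylpf. Myl4, the atrial essential chain, had 2.67, 14.4 and 50.2 CPM in left ventricle, 3.74, 5.54 and 10.01 CPM in skeletal muscle and 1.41, 1.81 and 2.25 CPM in kidney. Skeletal muscle lay above kidney in all libraries, and left ventricle spread to both sides of skeletal muscle.

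Myl6 (chr10:128490860-128494145, minus strand) was the only member at its highest in kidney, with 154, 204 and 232 CPM there, 76.1, 89.4 and 109 CPM in left ventricle and 41.7, 62.9 and 70.9 CPM in skeletal muscle. The 3 ranges did not overlap. Mylk3 (chr8:85324303-85386345, minus strand), the cardiac kinase, had 449, 555 and 668 CPM in left ventricle, 1.69, 2.21 and 8.97 CPM in skeletal muscle and 3.06, 3.5 and 4.18 CPM in kidney. Mylk2 (chr2:152911352-152923068, plus strand), the skeletal kinase, had 452, 717 and 858 CPM in skeletal muscle, 1.35, 1.92 and 2.28 CPM in left ventricle and 0.76, 1.25 and 1.79 CPM in kidney. Each kinase was thus high in a single tissue, and the highest value outside that tissue was 8.97 CPM for Mylk3, in skeletal muscle of 86-week mouse 17, and 2.28 CPM for Mylk2.

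**Figure D1:**
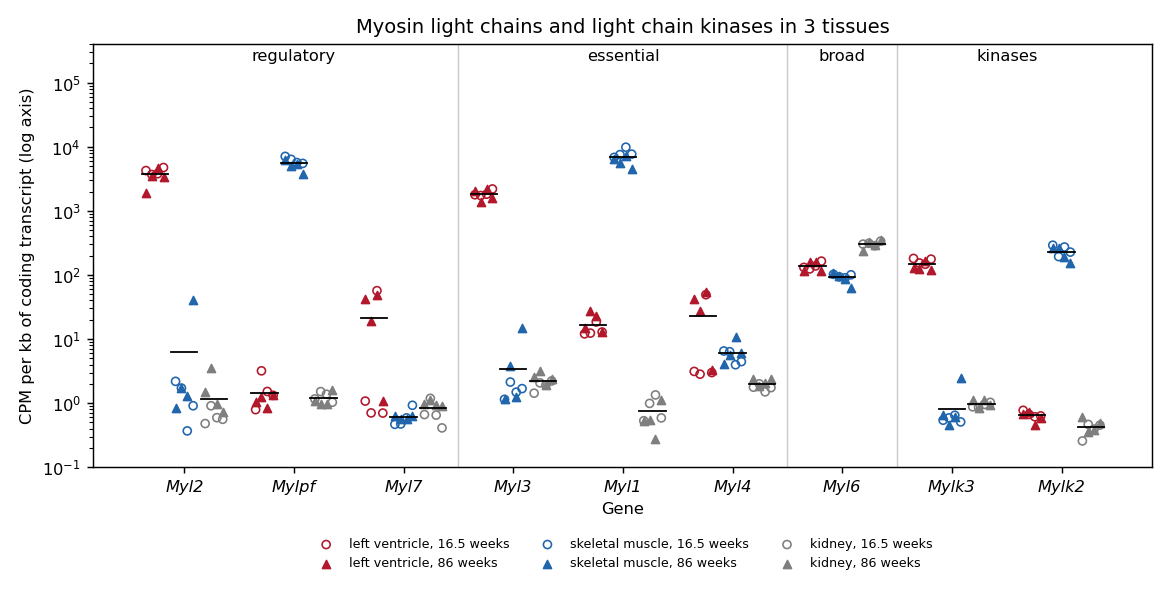
Level of each of the 9 genes in CPM per kb of coding transcript (log axis) in left ventricle (red), skeletal muscle (blue) and kidney (grey), 1 point per library, open circles for 16.5 weeks, filled triangles for 86 weeks, black bars for the mean of 8 libraries. Myl2, Myl3 and Mylk3 are high in left ventricle, Mylpf, Myl1 and Mylk2 in skeletal muscle, and Myl7 and Myl4 in left ventricle fall into an upper and a lower set of points.

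Per length, the order in left ventricle was Myl2 (3721 ± 908 CPM per kb, mean ± SD, n = 8), Myl3 (1828 ± 282), Mylk3 (150 ± 23.6), Myl6 (138 ± 20.5), Myl4 (23.1 ± 22.6), Myl7 (21.1 ± 24.1), Myl1 (16.7 ± 5.66), Mylpf (1.41 ± 0.76) and Mylk2 (0.64 ± 0.10). The library ranges of Myl2 and Myl3 overlapped, as did those of Mylk3 and Myl6 and those of Myl4, Myl7 and Myl1. In skeletal muscle Myl1 (6940 ± 1586 CPM per kb, n = 8) and Mylpf (5624 ± 980) overlapped at the top, followed without overlap by Mylk2 (231 ± 48.7) and Myl6 (92.2 ± 13.7). The other 5 members were between 0.61 and 6.18 CPM per kb on average, and each overlapped its neighbour in that order. Kidney had Myl6 at 305 ± 36.1 CPM per kb (n = 8) and the other 8 members between 0.42 and 2.21 CPM per kb, again overlapping from one to the next.

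These low averages can be set beside the 1410 olfactory receptor genes, which serve smell and stand here for what total RNA gives in tissues with no known use of a gene. Their median was 0.15 CPM per kb in kidney, 0.16 in left ventricle and 0.19 in skeletal muscle, and their 95th percentiles were 0.33, 0.39 and 0.47 CPM per kb. All 9 members had a mean above the 95th percentile in each tissue, by little for Mylk2 in kidney and left ventricle and for Myl7 in skeletal muscle. The Mylk3 mean in skeletal muscle (0.80 CPM per kb, median 0.60) includes 86-week mouse 17, at 2.43 CPM per kb. Some single libraries lay under the percentile, among them the lowest of Mylk3 (0.46) and Myl2 (0.37) in skeletal muscle and of Myl1 in kidney (0.27).

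As a share of the 3 sarcomeric regulatory chains per length, Myl2 made up 97.8% to 99.96% in left ventricle and Mylpf 98.9% to 99.98% in skeletal muscle. As a share of the 3 sarcomeric essential chains, Myl3 made up 96.2% to 99.3% in left ventricle and Myl1 99.5% to 99.9% in skeletal muscle. In kidney, where all 6 are low, the regulatory chains were mixed, with Mylpf at 17% to 52.6%, Myl2 at 20.8% to 63.3% and Myl7 at 19.7% to 32.9%. In left ventricle the ratio of Myl2 to Myl3 was 2.38, 2.13, 2.09 and 2.16 at 16.5 weeks (mice 14, 15, 19 and 20) and 0.93, 2.52, 2.14 and 2.14 at 86 weeks (mice 11, 12, 14 and 17). Mouse 11 alone had less Myl2 than Myl3, with the lowest Myl2 level of the 8 libraries and a Myl3 level inside the range of the others. In skeletal muscle the ratio of Myl1 to Mylpf was 0.97, 1.18, 1.74 and 1.40 at 16.5 weeks and 1.04, 1.11, 1.34 and 1.17 at 86 weeks, highest in 16.5-week mouse 19 and with no separation of the ages.

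Tissues were compared in a fit of all 24 libraries with no term for the mouse, so libraries of the same mouse counted as independent. The p-values of that fit measure the spread between libraries. Those of the age and sex tests within a tissue measure the spread between mice. Between left ventricle and skeletal muscle 9 of 9 members passed the test, 6 higher in left ventricle and 3 higher in skeletal muscle, where 26.6% of 46984 genes passed (15.4% higher in left ventricle and 11.3% higher in skeletal muscle). Between left ventricle and kidney 8 of 9 passed against 33.6% of genes, 7 higher in left ventricle (14.3% of genes) and 1 higher in kidney (19.3%). Between skeletal muscle and kidney 6 of 9 passed against 43.5% of genes, 5 higher in skeletal muscle (21.4%) and 1 higher in kidney (22.1%). The median log2 difference of the 9 was 1.74, 4.38 and 1.61 in these 3 comparisons, beside -0.12, 0.10 and 0.23 over all genes tested.

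The sarcomeric chains and kinases gave the largest differences. Against skeletal muscle, left ventricle was higher in Myl2 by 10.03 ± 0.69 on the log2 scale (SE, edgeR adjusted p = 3.11e-12), in Myl3 by 9.35 ± 0.41 (2.96e-16) and in Mylk3 by 7.64 ± 0.24 (3.12e-19). Skeletal muscle was higher in Mylpf (log2 difference -11.98 ± 0.26, adjusted p = 2.12e-22), Myl1 (-8.70 ± 0.27, 1.11e-19) and Mylk2 (-8.49 ± 0.17, 7.42e-23). These 6 lie far outside the spread between libraries of a tissue, and none lost its call under any alternative.

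Smaller differences were found for the remaining members of that comparison. Myl6 was higher in left ventricle by 0.59 ± 0.10 (edgeR adjusted p = 5.25e-05) and Myl7 by 4.85 ± 0.75 (8.05e-06). The difference in Myl7 was 2.91 without 16.5-week mouse 19 and 3.10 in the 16.5-week mice alone, and passed in both. Myl4 was higher by 1.74 ± 0.46 (adjusted p = 0.00485), but with the mouse as a block the difference was 1.26 with adjusted p = 0.0664. It was 0.61 (0.235) without 16.5-week mouse 19, 1.38 (0.0579) without 86-week mouse 11, and 0.78 (0.375) in the 16.5-week mice alone.

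Against kidney, left ventricle was higher in Myl1 by 4.50 ± 0.24 on the log2 scale (edgeR adjusted p = 5.21e-15), in Myl4 by 3.34 ± 0.50 (3.20e-06) and in Myl7 by 4.38 ± 0.71 (1.13e-05). Without 16.5-week mouse 19 the last 2 were 2.26 and 2.5, both still past the test. For the ventricular genes the differences were 11.88 ± 0.74 (Myl2), 9.71 ± 0.42 (Myl3) and 7.27 ± 0.24 (Mylk3), all past the test. Mylk2 differed by 0.59 ± 0.14 (adjusted p = 0.00155), a call lost with scaling by library size alone (0.30, 0.135) and in the 86-week mice alone (0.29, 0.397). Mylpf, at 0.19 ± 0.20, did not pass (adjusted p = 0.550). Myl6 was higher in kidney than in left ventricle (-1.14 ± 0.11, 6.21e-10) and than in skeletal muscle (-1.73 ± 0.11, 1.27e-13).

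Skeletal muscle exceeded kidney in Myl1 by 13.21 ± 0.32, Mylpf by 12.17 ± 0.26 and Mylk2 by 9.08 ± 0.18, all past the test. Myl4 was higher in skeletal muscle by 1.61 ± 0.48 (edgeR adjusted p = 0.00821), which did not pass with scaling by library size alone (1.01, 0.139). Myl2 was higher by 1.85 ± 0.57 (adjusted p = 0.0100), and the estimate moved with 86-week mouse 17, without which it was 0.17 with adjusted p = 0.701. The call was also lost without 16.5-week mouse 14 (1.32, 0.115), without 16.5-week mouse 15 (1.64, 0.0585), with the mouse as a block (1.29, 0.0784) and by library size alone (1.33, 0.128), and it was kept in the 16.5-week mice alone, at 0.81. Myl3 (0.35 ± 0.32, adjusted p = 0.391), Myl7 (-0.46 ± 0.81, 0.674) and Mylk3 (-0.37 ± 0.20, 0.137) did not pass. Without 86-week mouse 17, Mylk3 was lower in skeletal muscle (-0.78, adjusted p = 2.14e-06).

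Scaling matters to the small differences. By library size alone the median over all genes moved from -0.12 to 0.20 for left ventricle against skeletal muscle, from 0.10 to -0.17 for left ventricle against kidney and from 0.23 to -0.35 for skeletal muscle against kidney. The genes passing in the first of these split into 7216 higher and 5300 lower under TMM and 11500 higher and 2646 lower by library size alone. In the comparison of left ventricle with kidney the split went from 6715 and 9055 to 3928 and 12452, and in that of skeletal muscle with kidney from 10046 and 10392 to 2465 and 16363. Relative to the median of all genes, Mylk2 in left ventricle against kidney stood at 0.50 under TMM and at 0.48 by library size alone, and Myl6 in skeletal muscle against kidney at -1.96 and -1.98.

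The atrial chains set individual left ventricle libraries apart. Myl4 had 2.94, 2.67, 46.3 and 2.82 CPM in 16.5-week mice 14, 15, 19 and 20 and 40.2, 25.7, 50.2 and 3.12 CPM in 86-week mice 11, 12, 14 and 17. Myl7 had 0.64, 0.42, 33.5 and 0.41 CPM in the younger mice and 24.6, 11.1, 28.4 and 0.64 CPM in the older ones. Both chains were high in 1 of 4 younger and 3 of 4 older mice, in libraries from both sexes, and nothing lay between 3.12 and 25.7 CPM for Myl4.

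The list of 6 other atrial genes divided in its behaviour. The 4 libraries with the most Myl4 were also the 4 with the most Sln (sarcolipin, a regulator of the calcium pump), Dkk3 (a secreted Dickkopf-family protein) and Nppa (atrial natriuretic peptide). Sln had 9.64, 7.63, 3.42 and 7.16 CPM in 16.5-week mouse 19 and 86-week mice 11, 12 and 14 and at most 0.60 CPM in the other 4. Dkk3 had 27.8, 34.9, 14.5 and 37.2 CPM against at most 8.85 CPM, and Nppa had 45.4, 109, 48.9 and 78.0 CPM against at most 29.8 CPM. Kcnj3, an atrial potassium channel subunit, ran from 57.6 to 77.0 CPM and Bmp10, a growth factor of the right atrium, from 1.08 to 1.90 CPM, and only 2 of their 4 highest libraries were among those 4. For Stard10 it was 3 of 4, with 7.69 to 13.2 CPM. Summed over the 6 genes, the level was 93.7 to 163 CPM at 16.5 weeks and 89.1 to 228 CPM at 86 weeks.

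Proportions between the genes can be read in those 4 libraries. Myl7 was 3.47, 3.22, 3.24 and 3.96 times Sln by CPM in 16.5-week mouse 19 and 86-week mice 11, 12 and 14, and per length Myl4 was 0.87, 1.02, 1.45 and 1.11 times Myl7. In the 4 libraries with little of either chain, Myl4 was 2.90 to 4.28 times Myl7 per length. Myl7 came to 0.99%, 1.48%, 0.36% and 0.69% of Myl2 by CPM in the same 4 libraries. Myl3 was at 1700, 1880, 1284 and 2023 CPM there and at 1476 to 2052 CPM elsewhere, so the ventricular chain did not divide the libraries in this way. The part of atrial tissue in these levels was not tested.

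**Figure D2:**
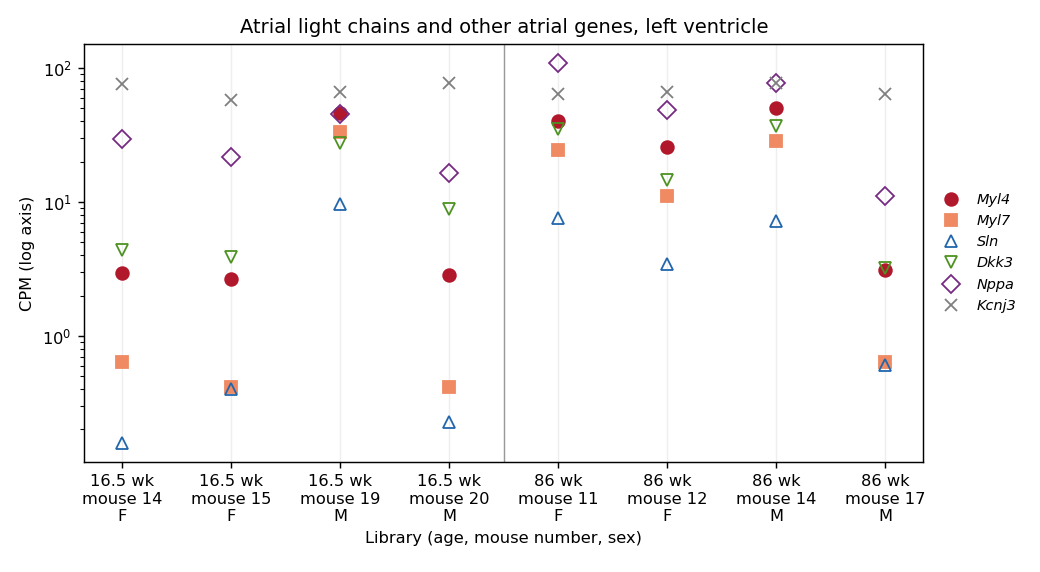
CPM (log axis) of Myl4 and Myl7 (filled) and of Sln, Dkk3, Nppa and Kcnj3 (open or crosses) in the 8 left ventricle libraries, 1 column per mouse, with the ages separated by the vertical line. Myl4, Myl7, Sln, Dkk3 and Nppa are highest in 16.5-week mouse 19 and 86-week mice 11, 12 and 14, while Kcnj3 stays between 57.6 and 77.0 CPM.

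The genes whose left ventricle levels ran most like those of Myl4 and Myl7 were sought among 10098 genes with a mean of at least 5 CPM. Over the 8 libraries, each chain was the other's closest match (Pearson r = 0.997 on log2(CPM + 1)). Next for both came Ifit3 (an interferon-induced gene; r = 0.95 and 0.96) and Dkk3 (r = 0.95 and 0.94), then Prg4 (lubricin, r = 0.94) and Apobec3 (an antiviral cytidine deaminase, r = 0.94) for Myl4, and Pkhd1l1 and Usp49 (r = 0.93 each) for Myl7. Ifit3 ran only from 6.28 to 12.1 CPM, Apobec3 from 10.1 to 13.1 CPM and Usp49 from 8.46 to 10.2 CPM, while Dkk3 ran from 3.20 to 37.2 CPM. Myl1 in left ventricle was most like Arhgap45 (r = 0.95), Myo1f (0.94), Cd74 (the class II invariant chain, 0.94), Iqgap2 (0.92) and H2-Eb1 (a class II histocompatibility chain, 0.92). Picked as the highest of 10098 correlations over 8 libraries, such values are raised by selection, and none was tested.

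Skeletal muscle of 86-week mouse 17 carried the ventricular genes. Myl2 had 1.94, 1.53, 0.33 and 0.81 CPM in skeletal muscle at 16.5 weeks and 0.74, 1.51, 1.14 and 35.9 CPM at 86 weeks, in the order of mice above. Myl3 had 1.07, 2.00, 1.39 and 1.58 CPM and then 1.08, 3.60, 1.16 and 13.8 CPM, and Mylk3 had 2.00, 2.17, 2.39 and 1.88 CPM and then 2.42, 1.69, 2.25 and 8.97 CPM. In each case that library lay above the other 7, whose ages overlapped.

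Cardiac and slow-fibre markers were also high in that library. Myh6, the alpha cardiac heavy chain, had 342 CPM in that library and at most 10.3 CPM in the other 7, and 5 of the 6 cardiomyocyte markers were at their highest there. The exception, Actc1, was at 42.3 CPM in that library, its lowest, and at 85.6 to 655 CPM in the others. Of the 7 slow-fibre markers, several of which the heart also expresses, 4 were highest there, and their sum was 189 CPM against 47.8 to 87.4 CPM. These were the calcium pump Atp2a2 (137 CPM), Myh7 (23.6 CPM), the slow and cardiac troponin Tnnc1 (9.73 CPM) and Casq2 (7.65 CPM). The other 3, the slow-fibre troponins Tnni1 (1.58 CPM) and Tnnt1 (1.59 CPM) and the heavy chain Myh7b (7.98 CPM), were inside the range of the other libraries. Per 1000 CPM of Myh6 above the median of the other libraries, this sample had 103 CPM of Myl2, 36.8 CPM of Myl3 and 20.2 CPM of Mylk3. The left ventricle of the same mouse had 99.9, 49.3 and 14.97 CPM per 1000 CPM of Myh6. Over all left ventricles the ranges were 49.6 to 99.9, 36.8 to 56.2 and 13.1 to 15.4 CPM, so Myl2 and Mylk3 lay above theirs. The part of heart or slow-fibre RNA in this library was not tested.

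**Figure D3:**
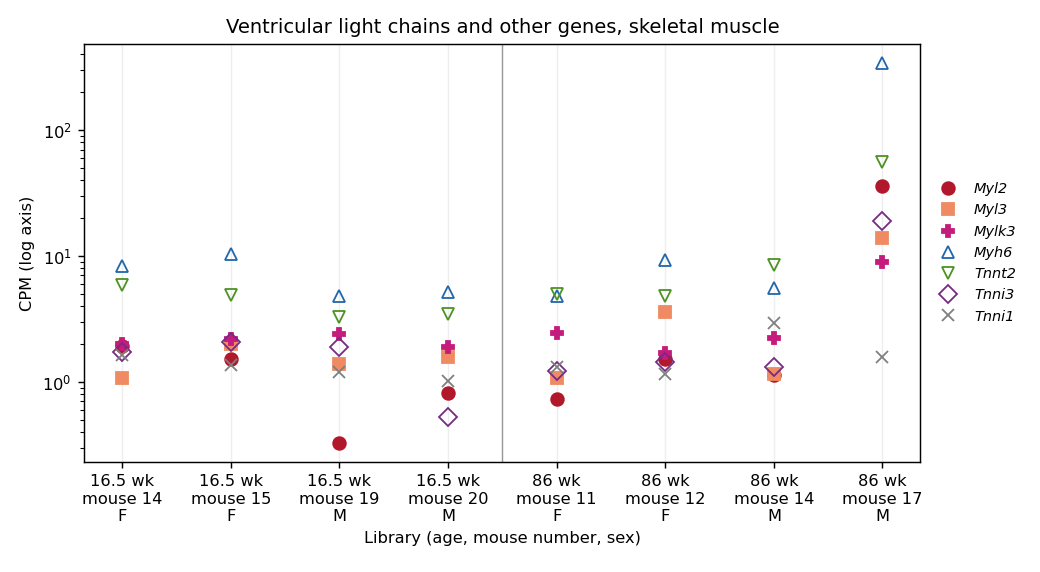
CPM (log axis) of Myl2, Myl3 and Mylk3 (filled) and of the cardiac genes Myh6, Tnnt2 and Tnni3 (open) and the slow-fibre troponin Tnni1 (crosses) in the 8 skeletal muscle libraries, with the ages separated by the vertical line. In 86-week mouse 17 Myl2 reaches 35.9 CPM and Myh6 342 CPM, and Tnni1 is at 1.58 CPM. Tnni1 is 1 of 7 slow-fibre markers, of which 4 others were highest in that library.

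Over the 8 skeletal muscle libraries the closest matches of Myl2 among 9468 genes were Myh6 (Pearson r = 0.99), Mybpc3 (cardiac myosin binding protein, 0.98), Myh7 (the slow and beta cardiac heavy chain, 0.97), Tnnt2 (0.97) and Dsp (desmoplakin, 0.97). Those of Myl3 were Cacna1b (a neuronal calcium channel, 0.97), Myh6 (0.95), Mybpc3 (0.94), Myh7 (0.94) and Ryr2 (the cardiac calcium release channel, 0.93). For Myl2 these correlations turn on 1 library, 86-week mouse 17, since the other 7 lay between 0.33 and 1.94 CPM. For Myl3 that library weighs on them too, at 13.8 CPM against 1.07 to 3.60 CPM in the other 7.

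Small amounts of fast-fibre and cardiac genes were also seen elsewhere. In left ventricle, Mylpf was highest in 16.5-week mouse 15, at 2.44 CPM against at most 1.16 CPM, and so were 8 of the 9 fast-fibre markers, with Myh4 at 28.0 CPM against at most 2.72 CPM. Mylpf had 56.7 CPM per 1000 CPM of Myh4 in excess there. That mouse's skeletal muscle had 41.7, and all skeletal muscles had 32.3 to 44.2. Myl1 in the left ventricle of 16.5-week mouse 15 was 9.93 CPM, below the median of the other left ventricles (11.8 CPM). Left ventricular Myl1 and Mylpf thus peaked in different libraries. Over the left ventricle libraries Mylpf was most like Myh4 (r = 0.92), ahead of Prdm15 (0.82), Eef1e1 (0.81), Kcp (0.80) and Kcna5 (0.79). The library of 16.5-week mouse 15 was highest in both Mylpf and Myh4, so this correlation leans on it.

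In kidney, Myl2 and Myl3 were highest in 86-week mouse 12, at 3.17 and 3.0 CPM against at most 1.30 and 2.41 CPM. Myh6 was at 26.9 CPM in that library against at most 7.36 CPM, and 5 of 6 cardiomyocyte markers were highest there. Its Myl2 and Myl3 excess came to 109 and 46.0 CPM per 1000 CPM of Myh6. The left ventricle of that mouse had 88.1 and 36.8, and all left ventricles had 49.6 to 99.9 and 36.8 to 56.2. In the other direction, skeletal muscle of 16.5-week mouse 19 had the kidney markers at 72.8 CPM in sum against 7.97 to 17.7 CPM, and Myl6 there was 59.9 CPM, within the range of the other libraries. The part of RNA from another tissue in these libraries was not tested.

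With age, no member passed the test in any tissue. In left ventricle 0 of 9 passed by edgeR and by DESeq2, where edgeR called 0.0741% of 44546 genes and DESeq2 70 of 25546. An unadjusted edgeR p under 0.05 was found for 2 of 9 members and for 1501 of 44546 genes. In skeletal muscle 0 of 9 passed by both tools, where edgeR called 0.0183% of 43711 genes and DESeq2 90 of 25067. There 2 members and 2408 of 43711 genes had an unadjusted edgeR p under 0.05. In kidney 0 of 9 passed by edgeR and 1 by DESeq2, where edgeR called 0.112% of 44572 genes and DESeq2 238 of 19512. Here 2 members and 3549 of 44572 genes had an unadjusted edgeR p under 0.05. No member had ages that did not overlap in any tissue, beside 2.09%, 2.71% and 3.52% of the genes tested in left ventricle, skeletal muscle and kidney.

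The largest estimates in left ventricle were those of the atrial chains, and they had the widest errors. Myl7 was at 2.03 ± 1.27 on the log2 scale (86 against 16.5 weeks, SE) and Myl4 at 1.75 ± 0.86 (edgeR adjusted p = 0.9997 for both). Without 16.5-week mouse 19, the only younger mouse high in these chains, Myl7 was higher at 86 weeks by 5.12 (edgeR adjusted p = 0.00696) and Myl4 by 3.44 (0.0100). In that fit 41 genes passed in all. It leaves out the younger library that goes against the difference. Over the fits that left out any other mouse, Myl7 lay between 1.03 and 3.23, Myl4 lay between 1.15 and 2.58, and neither passed.

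The ventricular and fast chains of left ventricle did not pass either. Myl2 went from 3655 ± 428 CPM (SD, n = 4) to 2960 ± 1007 CPM, a log2 fold change of -0.33 ± 0.19, and Myl3 from 1760 ± 198 to 1666 ± 344 CPM (-0.08 ± 0.15). Mylk3 had 668, 567, 542 and 651 CPM at 16.5 weeks and 473, 457, 616 and 449 CPM at 86 weeks, a change of -0.29 ± 0.13 with an unadjusted p of 0.0412. Myl1 had 9.67, 9.93, 14.8 and 10.3 CPM and then 11.8, 21.8, 18.4 and 10.3 CPM, a change of 0.48 ± 0.20 with an unadjusted p of 0.0298. Mylpf (-0.60 ± 0.34), Mylk2 (-0.14 ± 0.18) and Myl6 (-0.02 ± 0.13) did not pass, and the edgeR adjusted p of all 9 was 0.9997. Without 16.5-week mouse 15, the left ventricle with the most Mylpf, the Mylpf estimate was -0.04.

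In skeletal muscle the fast chains gave negative estimates. Myl1 had 5473, 6038, 7887 and 6152 CPM at 16.5 weeks and 5191, 4440, 5816 and 3585 CPM at 86 weeks, a log2 fold change of -0.39 ± 0.15 (edgeR adjusted p = 0.844). Mylpf had 5408, 4868, 4333 and 4204 CPM and then 4767, 3820, 4146 and 2918 CPM, a change of -0.24 ± 0.12 (0.936). In both, 86-week mouse 17 was lowest on this scale and the ages overlapped. The TMM factor of that library was 1.04, against 0.73 to 0.82 in the other skeletal muscles, and a higher factor lowers CPM. Myl1 had 220708 of 59073289 counts there and a smaller part, 370897 of 103797551, in 86-week mouse 12. Its rank thus depends on the scaling. Mylk2 had 858, 570, 804 and 669 CPM and then 781, 764, 554 and 452 CPM (-0.19 ± 0.15).

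The ventricular genes of skeletal muscle had positive estimates that followed a single library. Myl2 was at 2.15 ± 1.28, Myl3 at 1.53 ± 0.64 and Mylk3 at 0.74 ± 0.40. Without 86-week mouse 17 they were at -0.02, 0.26 and 0.01. Myl4 (0.32 ± 0.27), Myl7 (0.05 ± 0.32) and Myl6 (-0.12 ± 0.11) did not pass, and over the 9 members the edgeR adjusted p lay between 0.844 and 0.998.

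In kidney, Myl2 had 0.43, 0.81, 0.53 and 0.50 CPM at 16.5 weeks and 1.30, 3.17, 0.86 and 0.65 CPM at 86 weeks. The log2 change was 1.27 ± 0.34 with an edgeR adjusted p of 0.286 and a DESeq2 adjusted p of 0.0264. Leaving out 86-week mouse 12, the kidney with the most Myh6, gave 0.84 with an edgeR adjusted p of 0.416. Myl3 was at 0.42 ± 0.19, Myl7 at 0.50 ± 0.29, Myl4 at 0.35 ± 0.17, Mylk2 at 0.26 ± 0.24 and Mylk3 at 0.16 ± 0.15. Myl6, the abundant light chain of kidney, went from 205 ± 14.1 CPM (SD, n = 4) to 200 ± 33.5 CPM (-0.01 ± 0.10), and Mylpf (-0.12 ± 0.23) and Myl1 (-0.46 ± 0.39) did not pass.

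**Figure D4:**
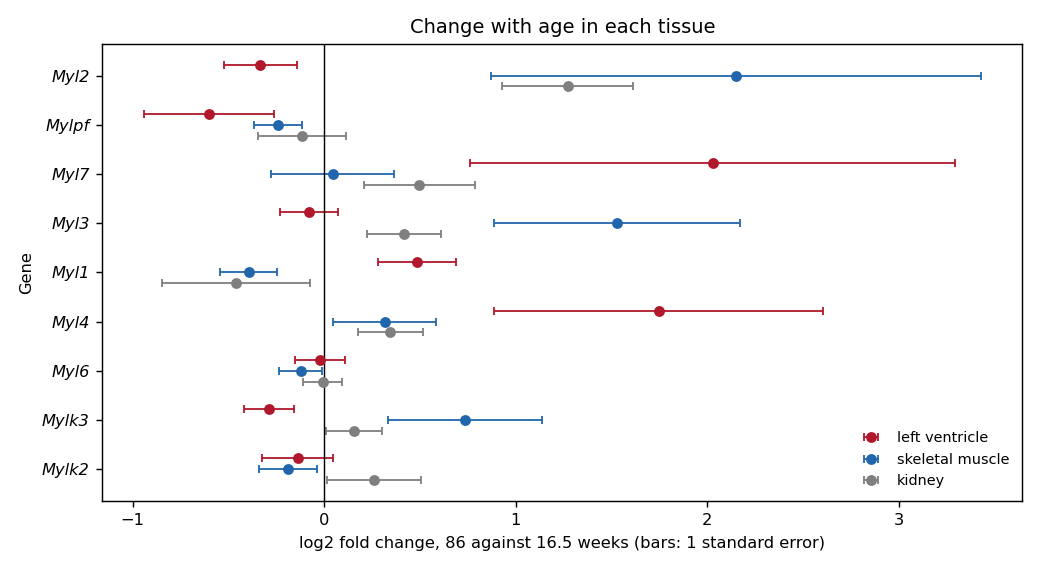
Log2 fold change between 86 and 16.5 weeks for the 9 genes in left ventricle (red), skeletal muscle (blue) and kidney (grey), with bars of 1 standard error. The widest bars belong to Myl7 and Myl4 in left ventricle and to Myl2 in skeletal muscle, and no change passed the test.

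A difference of the age change from tissue to tissue was tested over all 24 libraries. The count was 0 of 9 members by edgeR and by DESeq2, where 0.0319% of 46984 genes passed by edgeR and 52 of 39696 by DESeq2. Under an unadjusted edgeR p of 0.05 were 1 member (Myl1, 0.0442) and 1909 of 46984 genes.

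The isoform shares did not pass a test by age. Myl7 made up 0.38% ± 0.73 of the regulatory chains in left ventricle at 16.5 weeks and 0.95% ± 0.92 at 86 weeks (SD, n = 4, exact permutation test, two-sided, p = 0.286), and Myl4 made up 0.77% ± 1.23 and 1.64% ± 0.98 of the essential chains (exact permutation p = 0.400). In skeletal muscle Myl2 made up 0.02% ± 0.01 and 0.28% ± 0.51 of the regulatory chains (exact permutation p = 0.400) and Myl3 0.02% ± 0.01 and 0.11% ± 0.15 of the essential chains (exact permutation p = 0.286). Over these 4 tests the adjusted p was 0.400 for each, and the smallest p that 4 against 4 allows is 0.0286.

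Between the sexes 0 of 9 members passed in left ventricle (0 at an unadjusted p under 0.05, against 0.871% of genes passing), 0 of 9 in skeletal muscle (0, against 1.36%) and 0 of 9 in kidney (1, against 7.58%). DESeq2 also called 0 of 9 in each tissue. The kidney gene with the unadjusted p under 0.05 was Myl2, at -0.98 ± 0.34 (males against females, edgeR adjusted p = 0.112). Over the 8 fits that left out 1 mouse it lay between -1.25 and -0.53. It passed in 1 of them, without 16.5-week mouse 14 (-1.25, 0.0271). The females include 86-week mouse 12, at 3.17 CPM against at most 1.30 CPM in the other kidneys. The atrial chains in left ventricle were at 1.32 ± 0.86 (Myl4) and 1.95 ± 1.27 (Myl7), and Myl1 and Mylpf in skeletal muscle at 0.17 ± 0.15 and -0.23 ± 0.12, none past the test.

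The partners of these genes were read from 3 lists: 5 other light chains, 16 kinases, phosphatase subunits and calmodulins that act on light chains, and 13 myosin heavy chains. All were measured. Of the heavy chains 13 of 13 passed between left ventricle and skeletal muscle, 7 higher in left ventricle and 6 in skeletal muscle (median log2 difference 0.83), where 26.6% of all genes passed, 15.4% and 11.3% in these directions. Myh6 differed by 10.69 ± 0.81 towards left ventricle, and the fast Myh4 (-14.89 ± 0.68) and Myh1 (-9.94 ± 0.26) and the perinatal Myh8 (-8.89 ± 0.17) differed towards skeletal muscle.

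Against kidney, left ventricle had 5 heavy chains higher and 3 lower, among them Myh6 (12.61 ± 0.86), the beta chain Myh7 (9.25 ± 0.26), Myh7b (5.61 ± 0.15) and, lower in left ventricle, Myh1 (-1.26 ± 0.19). The median over the 13 was 0.17, and 14.3% of all genes were higher in left ventricle and 19.3% lower. Skeletal muscle against kidney had 9 higher and 2 lower (median 1.92), beside 21.4% and 22.1% of all genes, led by Myh4 (15.05 ± 0.68), Myh8 (9.17 ± 0.17), Myh1 (8.68 ± 0.24) and the type 2A chain Myh2 (7.67 ± 0.22).

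Of the kinase and phosphatase list 13 of 16 passed between left ventricle and skeletal muscle, 6 higher in left ventricle and 7 lower (median -0.15). Of all genes 26.6% passed, 15.4% higher in left ventricle and 11.3% lower. Mylk4, a further striated-muscle kinase of this family, was lower in left ventricle (-3.5 ± 0.14 on the log2 scale), as was the calmodulin gene Calm3 (-1.68 ± 0.11). Per length Mylk4 had 420 ± 134 CPM per kb (SD, n = 8) in skeletal muscle beside 231 ± 48.7 for Mylk2, and 36.3 ± 5.43 in left ventricle beside 150 ± 23.6 for Mylk3.

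Against kidney 13 of 16 passed in left ventricle (9 higher, median 0.33), beside 33.6% of all genes, and 16 of 16 in skeletal muscle (10 higher, median 1.05), beside 43.5%. Higher in both were Mylk4 (6.75 ± 0.17 in left ventricle and 10.25 ± 0.19 in skeletal muscle), the phosphatase inhibitor Ppp1r14c (6.25 ± 0.14 and 6.46 ± 0.14) and the phosphatase targeting subunit Ppp1r12b (3.42 ± 0.10 and 3.26 ± 0.10). Mylk, the smooth-muscle and non-muscle kinase, was higher in kidney than in either (-2.64 ± 0.09 and -3.27 ± 0.09). These 2 comparisons share the kidney libraries.

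Of the other light chains 4 of 5 passed between left ventricle and skeletal muscle (3 higher in left ventricle, median 0.60), beside 26.6% of all genes. The non-muscle regulatory chains Myl12a (2.00 ± 0.12) and Myl12b (1.39 ± 0.10) and the smooth-muscle chain Myl9 (0.60 ± 0.15) were higher in left ventricle and Myl6b was lower (-1.14 ± 0.12). The Myl9 call was lost in the 86-week mice alone (0.58, edgeR adjusted p = 0.0537). Against kidney, Myl12b (-1.36 ± 0.10 and -2.74 ± 0.10) and Myl9 (-0.98 ± 0.15 and -1.59 ± 0.15) were lower in left ventricle and in skeletal muscle. Myl6b was lower in left ventricle (-1.24 ± 0.12).

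Myl12a was higher in left ventricle than in kidney by 2.37 ± 0.12 and in skeletal muscle by 0.37 ± 0.11 (adjusted p = 0.00937), and the latter reversed to -0.22 (0.0619) with scaling by library size alone and was lost with RLE size factors (0.32, 0.0700), by DESeq2 (0.32, 0.0547) and in the 86-week mice alone (0.26, 0.343). Myl10 was at 0.63 ± 0.24 in skeletal muscle against kidney (adjusted p = 0.0359) and missed the threshold under 9 alternatives, among them no filter on low counts (0.59, 0.0629). Against kidney, 4 of 5 light chains passed in left ventricle and in skeletal muscle, with medians of -0.98 and -0.11, beside 33.6% and 43.5% of all genes.

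With age, 0 of 5, 0 of 16 and 0 of 13 partners of the 3 lists passed by edgeR in each tissue. At an unadjusted p under 0.05 there were 0, 2 and 0 in left ventricle, 0, 1 and 0 in skeletal muscle and 1, 1 and 2 in kidney. DESeq2 called 1 partner, Prkg1, the cyclic GMP kinase that acts on the light chain phosphatase, in skeletal muscle (-0.62, adjusted p = 0.0160). It called 90 of 25067 genes there, and edgeR gave Prkg1 at -0.58 ± 0.13 (adjusted p = 0.311). With scaling by library size alone edgeR called Ppp1r14c in left ventricle (-0.37, adjusted p = 0.0330). The smallest p in each list otherwise belonged to Ppp1r14c (-0.42 ± 0.13), Myl12b (0.19 ± 0.13) and Myh4 (-1.39 ± 0.69) in left ventricle. In skeletal muscle these were Myl6b (0.36 ± 0.17) and Myh8 (-0.23 ± 0.12), and in kidney Myh6 (1.43 ± 0.35), Myl12a (0.28 ± 0.11) and Ppp1cb (-0.20 ± 0.09). The left ventricle of 16.5-week mouse 15 had Myh4 at 28.0 CPM (others at most 2.72 CPM). The kidney of 86-week mouse 12 had Myh6 at 26.9 CPM (others at most 7.36 CPM).

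By sex, 0 of 34 partners passed in left ventricle (3 at an unadjusted p under 0.05, 0 by DESeq2). Of all 44546 genes there, 0.871% passed, 2273 had an unadjusted p under 0.05, and DESeq2 called 484. In skeletal muscle, where 1.36% of all genes passed, 1 of 34 did. This was the phosphatase inhibitor Ppp1r14b, higher in males by 0.58 ± 0.12 (edgeR adjusted p = 0.0308), a call lost under 8 alternatives. In kidney 5 of 34 passed, beside 7.58% of all genes. Male kidneys had more Myl6b (1.03 ± 0.13, adjusted p = 1.46e-04), the non-muscle heavy chain Myh14 (1.003 ± 0.11, 2.44e-05) and Myh4 (1.49 ± 0.41, 0.0363), and less Myh1 (-2.81 ± 0.18, 1.07e-07) and Myl9 (-0.57 ± 0.16, 0.0437). The Myh4 and Myl9 calls were each lost under 10 alternatives, and Myh4 was at 0.84 (0.181) without 16.5-week mouse 19 and 1.20 (0.184) without 86-week mouse 17. Those 2 males had 10.4 and 7.84 CPM of Myh4, beside 1.54 to 2.34 CPM in the other 6 kidneys.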

How the data were processed

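The authors deposited 1 table of whole-number counts per gene for 24 libraries of total RNA depleted of ribosomal RNA. The submitters' processing notes name STAR 2.7.6a, StringTie 2.1.1 and GRCm38.p6, without their roles, and the counting's strand setting is not given in the sources used here. Of 55401 gene IDs, 54349 matched GENCODE M21 with their version. Counts were scaled by TMM and tested with edgeR 4.0.16 quasi-likelihood models after filterByExpr, with Benjamini-Hochberg adjustment over all genes tested and a threshold of 0.05. Tissues were compared in 1 fit of 24 libraries with age and sex terms per tissue (15 residual degrees of freedom), and age and sex within each tissue in 8 libraries (5 residual degrees of freedom). The edgeR tests were also run on simulated counts drawn without a mouse effect, so the sharing of mice between tissues was not checked there. CPM per kb used the length of the principal coding transcript, 590 bases for Myl7 to 3696 for Mylk3. Likeness was Pearson's r over log2(CPM + 1). DESeq2 1.42.0, other scalings, no filter on low counts, each age alone and leaving out each mouse were alternatives.

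Libraries of different tissues that carry 1 mouse's label come from the same animal, and within a tissue the ages share no mice. The deviations of 24 such pairs correlated at 0.04 to 0.30 (median 0.12), 19 of them above 0.1. Genes named are the 9 members, at most 4 called or 2 uncalled partner genes per list and comparison, the 5 genes most alike, and markers that a result turns on. Some partner genes that this rule names are not reported here. Members and lists were chosen with earlier results of these data known. Samples were grouped by the labels' tissue, age and sex. Depth, 52602585 to 103797551 counts, bounds the precision of values near 1 CPM by counting, and mice bound that of the rest. Shares were compared with an exact permutation test, with Benjamini-Hochberg adjustment over 4 tests. No RefSeq promoter was matched for Mylk2.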

Additional observations from a re-analysis of the deposited data

Results flagged for a closer look

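Of 68 groups of 4 libraries examined, 11 held 1 library far from the other 3, and the rule used flags about 1 group in 20 by chance. These groups are not independent, since a gene's level and its share are counted separately. In left ventricle at 16.5 weeks this was mouse 19 for Myl4 (46.3 CPM), Myl7 (33.5 CPM), Myl1 (14.8 CPM), the Myl7 share of the regulatory chains (1.48%) and the Myl4 share of the essential chains (2.61%). In skeletal muscle at 86 weeks it was mouse 17 for Myl2 (35.9 CPM), Mylk3 (8.97 CPM), the Myl2 share of the regulatory chains (1.05%) and the Myl3 share of the essential chains (0.33%). Mylk3 in left ventricle at 86 weeks was high in mouse 14 (616 CPM, against 449 to 473 CPM in the other 3). Mylpf in kidney at 86 weeks was high in mouse 17 (1.24 CPM, against 0.73 to 0.82 CPM), a kidney that also had Myh4 at 7.84 CPM. The part of RNA from another tissue in these values was not tested.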

How the results depend on the processing

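Of the counts of members past the test, 142 of 145 alternatives stayed within 1.5 times the count reported. The exceptions were age in left ventricle, 0 to 2 of 9 over the fits that left out a library (2 without 16.5-week mouse 19), age in kidney, 1 of 9 by DESeq2, and sex in kidney, 0 to 1 of 9 over the fits that left out a library. With the mouse as a replicate block, 8, 8 and 5 of 9 members passed in left ventricle against skeletal muscle, left ventricle against kidney and skeletal muscle against kidney, and 12304, 15507 and 19846 genes, with 20 for the age change differing between tissues; Myl4 (1.26) and Myl2 (1.29) were the member calls lost. Tests of single members gave 12 lost and 7 gained calls in 1305 alternatives, and 50 uncalled estimates moved by sign. Among partners 1 call reversed, Myl12a in skeletal muscle against kidney (-0.22 by library size alone). For partners 9 calls were gained and 41 lost in 1158 alternatives. The 4 share tests did not pass under any of 40 alternatives, of which those leaving out a library could not pass, since 4 against 3 allows no p below 0.0571. Counts over all genes were less stable for age, at 18 to 117 genes in left ventricle (33 reported), 0 to 90 in skeletal muscle (8 reported; 0 without a filter on low counts, where 2722 had an unadjusted p under 0.05) and 0 to 238 in kidney (50 reported; 0 without the sex term, 2171). Sex gave 161 to 725 genes in left ventricle (388) and 345 to 1091 in skeletal muscle (594), and the age change differing between tissues 4 to 52 (15). Depth limits members near 1 CPM. The causes of these changes were not tested.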

Other observations

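In skeletal muscle the proportion of the kinases Mylk2 and Mylk4 was also read by sex. Per length, Mylk2 stood to Mylk4 at 0.79 ± 0.11 in females (SD, n = 4, 0.68 to 0.95) and at 0.41 ± 0.09 in males (n = 4, 0.31 to 0.51). This ratio was chosen after its values were seen and was not tested.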
